A study of Mus musculus with 12 samples.

Results

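A total of 37 genes of fatty acid oxidation and the citric acid cycle were examined in the abdominal fat of female C57BL/6 mice: 26 of fatty acid oxidation and 11 of the cycle. The genes were chosen by name, and each was found among the 18194 genes that the array measures with a probe set of its own. A gene's value is the mean of its probe sets, 72 probe sets in all for the 37 genes. The 2 pathways were read apart. The mice were wild type or null for p47phox (labelled P47KO), the cytosolic organiser subunit of the phagocyte NADPH oxidase, encoded by Ncf1. They ate casein or a high fat diet from postnatal day 28 for 13 weeks. Every one of the 12 arrays read pooled fat pads, and the 4 groups (wild type casein, null casein, and wild type and null on the high fat diet, called fat-fed pools) had 3 pools apiece. The labels used here do not give the number of animals in a pool or how the null allele was made, and p-values measure only the spread between pools. The deposited values are log2 values centred on the median of each probe set over the 12 arrays, so a value of 0.50 in a pool lies that far above the gene's own middle value, and levels of different genes cannot be compared.

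Long-chain fatty acids that enter a mitochondrion cross its membranes as acylcarnitines and are then shortened from the carboxyl end in repeated rounds of dehydrogenation, hydration, dehydrogenation and thiolysis. The electrons pass through the electron transfer flavoprotein to the respiratory chain, and the acetyl-CoA released enters the citric acid cycle, whose dehydrogenases make further NADH. White adipocytes mainly store fat and carry few mitochondria, whereas brown adipocytes, skeletal muscle and liver oxidise it at high rates.

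Ncf1 stood between 0.07 and 0.85 in the 6 wild type pools and between -0.29 and -0.19 in the 6 null pools. It fell in null pools by 0.71 ± 0.12 (SE, limma adjusted p = 0.014), so the labelled genotypes and this transcript go the same way in every pool. The median of 10 adipocyte markers lay between -0.14 and 0.21 in 10 of the 12 pools and was lower in null fat-fed pools 2 and 3, at -0.25 and -0.54, with 0 of 10 markers above 0 in either. Markers of other tissues stood apart in some pools. The median of 10 brown fat markers was highest in wild type casein pools 2 and 3, at 2.06 and 1.66, and lowest in null casein pool 1, at -1.24. Ucp1, the uncoupling protein that defines brown fat, ranged from -4.89 in null casein pool 1 to 3.72 in wild type casein pool 2. The median of 22 skeletal muscle markers reached 4.54 in wild type fat-fed pool 2, 3.58 in null fat-fed pool 1 and 2.69 in pool 1 of the wild type casein group, against -1.66 to 1.87 in the other pools. Liver markers (17 genes) had a median of 4.41 in wild type casein pool 3, where adrenal markers (7 genes) had one of 2.38 and the other pools lay between -0.14 and 0.20. Markers of ovary, oviduct and uterus (21 genes) had medians of -0.80 to -0.47 in the wild type fat-fed pools and 0.13 to 0.81 in the null ones. In bulk RNA fewer cells of a type and less RNA per cell cannot be told apart.

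Most genes of both pathways were highest in 1 pool, wild type casein pool 2. Of the 26 oxidation genes 21 had their highest value there, and so did 10 of the 11 cycle genes, where 14.5% of all genes did. In that pool 35 of the 37 genes lay above 0 (59.1% of all genes did), and in wild type casein pool 3 it was 32 of the 37 (47.7% of all genes). These are the 2 pools with the highest brown fat markers, 10 of 10 and 9 of 10 of which lay above 0. Pool 2 was also the highest in adipocyte markers, 10 of 10 above 0 (median 0.21). In pool 3 it was 3 of 10 (median -0.08). Pool 3 was also the highest in liver markers, 17 of 17 above 0, and in adrenal markers, 7 of 7 above 0. At the other end, null fat-fed pool 3 held the lowest value of 13 oxidation genes and 4 cycle genes, 17 of 37 where 17.2% of all genes were lowest. That pool was also the lowest in adipocyte markers, 0 of 10 of which lay above 0, and in liver markers, 0 of 17 above 0. It was the highest in markers of ovary, oviduct and uterus, 20 of 21 above 0, and 5 of 5 kidney markers lay above 0 (median 0.20). All 5 kidney markers also lay above 0 in null casein pool 3 (median 1.45) and wild type fat-fed pool 1 (0.09).

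The median over the oxidation genes was -0.13, 0.53 and 0.24 in pools 1, 2 and 3 of wild type casein, and 0.02, 0.03 and 0.01 in the null casein pools. On the high fat diet it was 0, 0.18 and -0.03 in the wild type pools and -0.07, -0.10 and -0.27 in the null pools. The cycle medians ran beside them: 0, 0.49 and 0.29 for the wild type casein pools, -0.10, 0.02 and 0.01 for the null casein pools, 0.02, 0.18 and -0.15 in wild type fat-fed pools and -0.06, -0.12 and -0.15 in null fat-fed pools. The casein groups overlapped for both pathways, and on the high fat diet they overlapped for the cycle but not for oxidation. Null casein pool 1, with 0 of 10 brown fat markers above 0, had 14 of 26 oxidation genes and 1 of 11 cycle genes above 0. In the same pool 22 of 22 skeletal muscle markers (median 1.87) and 17 of 17 liver markers (median 0.60) lay above 0. Wild type fat-fed pool 2, the pool highest in muscle markers and with a brown fat median of 1.01, had 31 of 37 genes above 0. The part of brown fat, muscle and liver in these values was not tested beyond the alternatives given with each result.

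**Figure D1:**
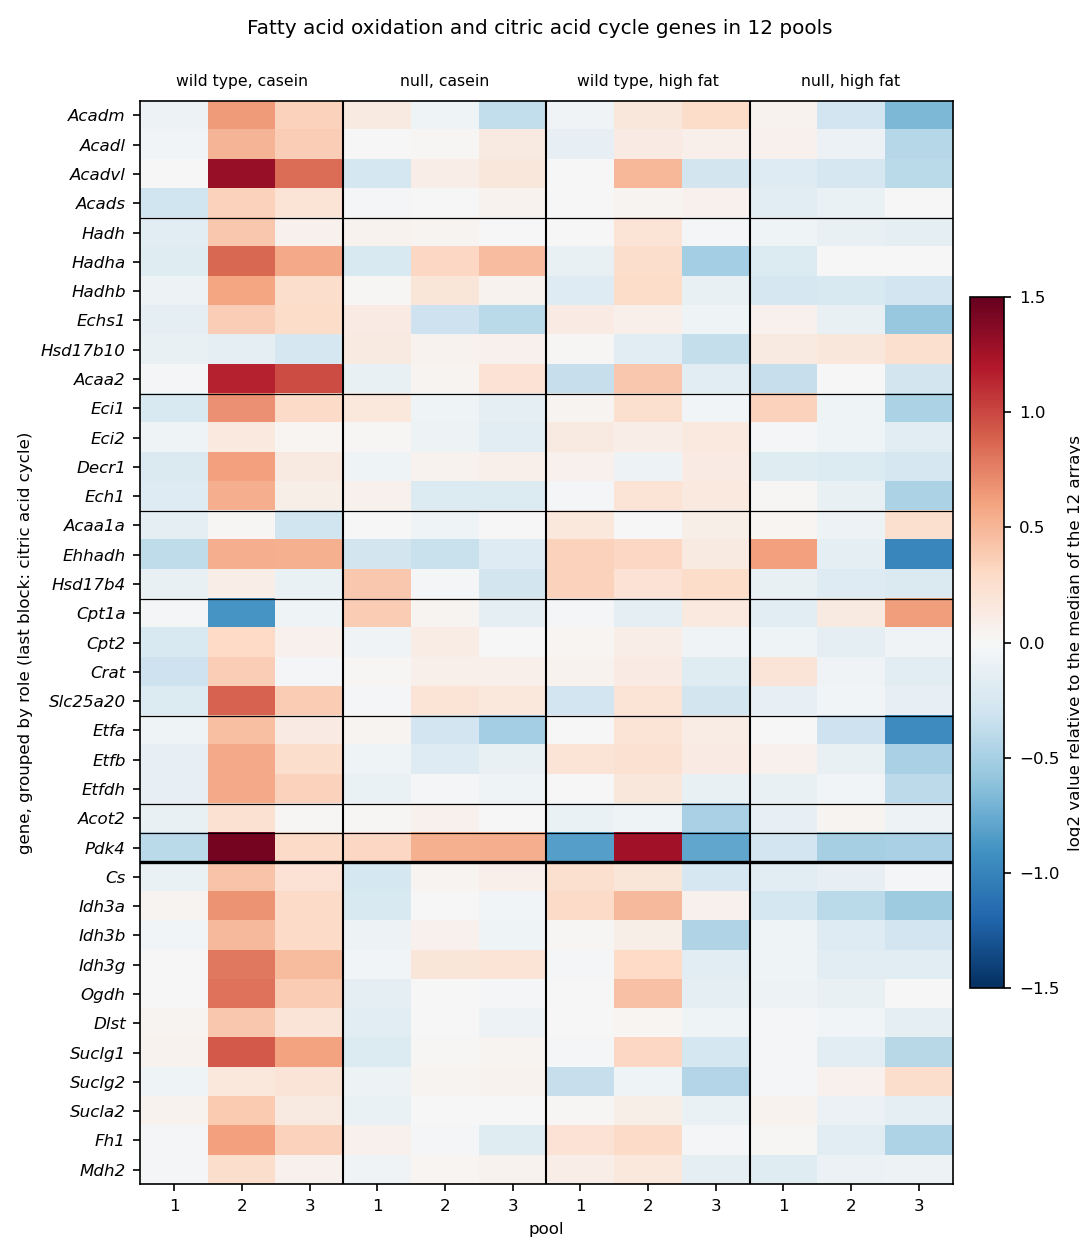
Centred log2 value of each of the 37 genes (rows, by role) in each of the 12 pools (columns, by group), with warm colours above and cool colours below the gene's median. The columns of wild type casein pools 2 and 3 are warm for nearly all rows, with Cpt1a and Hsd17b10 as exceptions in pool 2.

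**Figure D2:**
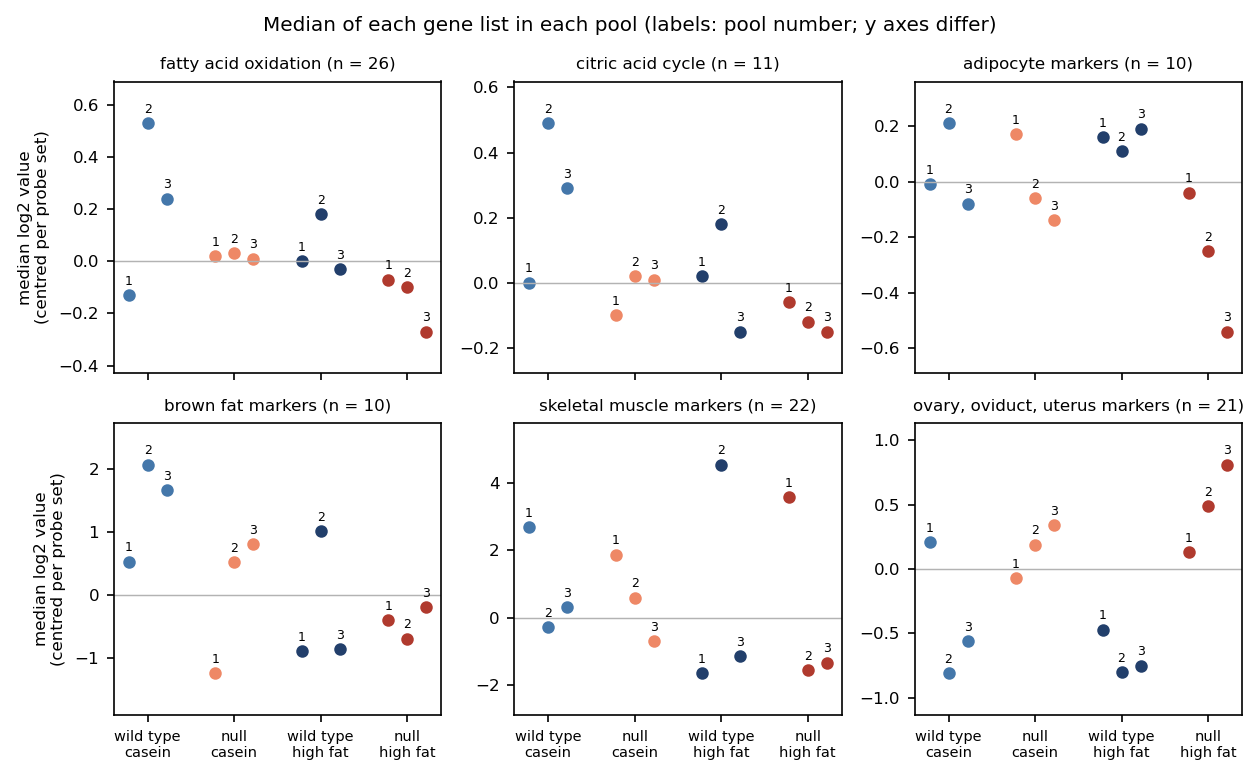
Median centred log2 value over the oxidation genes, the cycle genes and the brown fat, skeletal muscle, reproductive tract and adipocyte markers in each of the 12 pools, with 1 point per pool. Both pathways peak in wild type casein pool 2 (0.53 and 0.49), where the brown fat median is 2.06 and the muscle median -0.29.

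The genes differed in how far they spread. The span from the lowest to the highest pool had a median of 0.95 for oxidation and 0.94 for the cycle, against 0.50 for all 18194 genes. Pdk4, the kinase that switches off pyruvate dehydrogenase when fat is burned, had the widest span at 2.27, and Eci2 the narrowest at 0.32. Promoters are shown for genes at the ends of these patterns: Acadvl and Fh1, which were highest in wild type casein pool 2, Cpt1a, which was lowest there, Hsd17b10, which was higher in null pools, and Pdk4. Each window runs from 250 bases before to 50 after a transcript start in the RefSeq promoter table on GRCm38.p6, written 5′ to 3′ along the gene's strand. For Cpt1a that start lies inside the outer bounds of the gene, so the annotated gene begins upstream of the window. Capitals mark AGGTCA, the hexamer core of many nuclear receptor sites, or TGACCT where it lies on the opposite strand.
Acadvl, chr11:70015379-70015678, minus strand: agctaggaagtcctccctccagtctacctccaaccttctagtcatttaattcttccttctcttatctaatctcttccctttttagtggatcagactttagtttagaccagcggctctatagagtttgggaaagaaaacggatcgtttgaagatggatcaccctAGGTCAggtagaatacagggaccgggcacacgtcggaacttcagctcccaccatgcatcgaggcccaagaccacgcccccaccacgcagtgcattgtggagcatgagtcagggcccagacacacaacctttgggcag
Fh1, chr1:175625586-175625885, minus strand: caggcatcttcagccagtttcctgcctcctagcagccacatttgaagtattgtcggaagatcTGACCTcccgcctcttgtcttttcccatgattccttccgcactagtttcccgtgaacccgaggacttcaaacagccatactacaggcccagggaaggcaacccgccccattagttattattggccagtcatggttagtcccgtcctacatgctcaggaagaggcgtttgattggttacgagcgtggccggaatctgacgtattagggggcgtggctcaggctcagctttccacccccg
Cpt1a, chr19:3323051-3323350, plus strand: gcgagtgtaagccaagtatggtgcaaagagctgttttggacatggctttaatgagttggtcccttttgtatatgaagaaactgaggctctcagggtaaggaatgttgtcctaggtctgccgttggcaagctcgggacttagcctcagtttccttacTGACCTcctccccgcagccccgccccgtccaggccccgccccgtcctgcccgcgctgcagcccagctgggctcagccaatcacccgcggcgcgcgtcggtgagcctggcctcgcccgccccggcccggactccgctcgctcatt
Hsd17b10, chrX:152001646-152001945, plus strand: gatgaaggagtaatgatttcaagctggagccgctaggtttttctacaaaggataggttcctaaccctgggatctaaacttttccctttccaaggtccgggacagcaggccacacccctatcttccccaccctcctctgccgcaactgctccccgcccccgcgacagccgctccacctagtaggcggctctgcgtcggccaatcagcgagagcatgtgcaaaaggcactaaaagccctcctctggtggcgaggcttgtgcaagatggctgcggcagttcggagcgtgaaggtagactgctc
Pdk4, chr6:5496229-5496528, minus strand: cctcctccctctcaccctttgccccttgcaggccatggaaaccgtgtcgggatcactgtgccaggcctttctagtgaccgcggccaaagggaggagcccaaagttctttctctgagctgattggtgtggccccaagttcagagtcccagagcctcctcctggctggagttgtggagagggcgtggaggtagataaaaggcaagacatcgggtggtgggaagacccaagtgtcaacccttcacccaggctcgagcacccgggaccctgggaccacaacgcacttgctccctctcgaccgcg
The hexamer starts at base 164 of 300 for Acadvl, 63 for Fh1 and 157 for Cpt1a, and the windows of Hsd17b10 and Pdk4 hold none on either strand. Of the 37 genes, 32 have a promoter in the table, 37 promoters in all because Ogdh has 6. The hexamer occurs on either strand in 8 of the 37 promoters (21.6%), of Acadm, Acadvl, Cpt1a, Echs1, Fh1, Idh3g, Ogdh and Sucla2, against 16.3% of 32851 promoters in the table. The hexamer repeated in the same direction after 1 base of any kind occurs in 0 of the 37 and in 0.0396% of all promoters. Acadvl and Cpt1a both carry the hexamer and lie at opposite ends in wild type casein pool 2.

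In the oxidation pathway, the comparison of null with wild type pools on the high fat diet asked which of its steps differed without p47phox under that diet. Hsd17b10 was the only 1 of 26 oxidation genes that passed the test, and it rose in null pools. This mitochondrial short-chain dehydrogenase acts in isoleucine breakdown and is also a subunit of mitochondrial RNase P. Its values were 0.02, -0.17 and -0.36 in the wild type and 0.14, 0.17 and 0.24 in the null fat-fed pools. The null pools were all above the wild type pools, by 0.36 ± 0.09 (SE, 3 pools a group, limma adjusted p = 0.0492, 95% interval 0.15 to 0.56), or 1.28-fold. Among all genes 5.92% passed this test, so 1 of 26 is not above the background. That call ended in 19 of 23 alternatives, including each omission of a pool but those of wild type casein pool 1 and wild type fat-fed pool 1 (adjusted p = 0.0545 to 0.172).

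The other oxidation genes lay mostly below 0 in null fat-fed pools, 21 of 26 in all, with a median of -0.19 where that of all genes was -0.03. In 7 genes all null pools were lower (Hadh, Hadhb, Eci2, Decr1, Etfa, Etfb and Hsd17b4) and in 1 all were higher, against 32.2% of all genes not overlapping either way. Hsd17b4, the peroxisomal multifunctional enzyme that handles very long and branched chains, stood at 0.34, 0.22 and 0.27 in wild type and at -0.11, -0.19 and -0.22 in null pools. It differed by -0.45 ± 0.14 (limma adjusted p = 0.0855), and the groups did not overlap. Etfa, the alpha subunit of the electron transfer flavoprotein, read 0.01, 0.21 and 0.11 in the wild type, and -0.01, -0.31 and -0.94 in null pools (-0.53 ± 0.23, adjusted p = 0.172). Its partner Etfb read 0.21, 0.23 and 0.12 against 0.07, -0.11 and -0.49 (-0.36 ± 0.17, adjusted p = 0.215). For both subunits null fat-fed pool 3 was the lowest of all pools. Eci2, an isomerase that moves double bonds of unsaturated chains, read 0.14, 0.10 and 0.15 against -0.02, -0.06 and -0.17 (-0.21 ± 0.08, adjusted p = 0.124).

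By role, the 4 acyl-CoA dehydrogenases, which take the first step for chains of different length, lay below 0 in null fat-fed pools, from -0.44 ± 0.22 for Acadm (adjusted p = 0.25) to -0.12 ± 0.14 for Acads (adjusted p = 0.637). The 4 auxiliary enzymes for unsaturated chains lay between -0.30 for Ech1 and -0.15 for Eci1. The trifunctional protein subunits went apart in sign, Hadhb at -0.25 ± 0.16 and Hadha at 0.05 ± 0.28, neither past the test. In the carnitine shuttle, Cpt1a, the gatekeeper of entry, differed by 0.21 ± 0.25, Cpt2, its inner membrane partner, by -0.11 ± 0.12, and the carrier Slc25a20 by 0.03 ± 0.23. None of the shuttle genes passed (adjusted p = 0.60 to 0.991). Beside these values, adipocyte markers were lower in null fat-fed pools, 10 of 10 below 0 with 4 passing the test and a median of -0.43, and markers of ovary, oviduct and uterus were higher, 20 of 21 above 0 with 8 passing and a median of 1.28. The brown fat median differed by -0.08, with 5 of 10 markers on each side. Skeletal muscle markers had a median of -0.48 (21 of 22 below 0), macrophage markers -0.39 (7 of 10 below 0) and liver markers -0.27 (14 of 17 below 0), with 0 passing in any of these. Their part in the oxidation values was not tested one by one, except that the muscle and brown fat medians each served alone as a covariate. With the medians of muscle, liver and reproductive tract markers as covariates, the oxidation median turned to 0.41. The reproductive tract medians do not overlap between genotypes on this diet. That fit can therefore hardly tell this covariate and genotype apart, and it leaves 5 residual degrees of freedom.

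On casein, 0 of 26 oxidation genes passed between genotypes, as did 0% of all genes, while 3 had an unadjusted p under 0.05 (1478 of all genes did). Acadvl, the very-long-chain dehydrogenase, stood at 0.01, 1.31 and 0.84 in wild type pools and at -0.26, 0.10 and 0.17 in null pools. Acaa2, the thiolase of the last step, stood at -0.03, 1.16 and 0.98 against -0.11, 0.04 and 0.22. Wild type casein pools 2 and 3 were above all other pools for both genes, and wild type casein pool 1 lay among the null pools. The differences were -0.72 ± 0.29 for Acadvl (limma adjusted p = 0.592) and -0.66 ± 0.29 for Acaa2 (limma adjusted p = 0.608). The oxidation median was -0.21, with 20 of 26 genes below 0, and that of all genes was -0.01. Without wild type casein pools 2 and 3, the pools highest in brown fat markers, the oxidation median turned to 0.13, while it was -0.01 without pool 2 alone, -0.17 without pool 3 alone and -0.40 without pool 1. The first of these fits leaves wild type casein pool 1 as the only pool of its group. In that pool 22 of 22 skeletal muscle markers lay above 0 (median 2.69), so the 0.13 does not isolate brown fat. The brown fat markers differed in the same comparison by a median of -1.66, with 9 of 10 below 0 and 0 passing. Liver markers had a median of -1.05 (16 of 17 below 0), adrenal markers -0.93 (7 of 7 below 0), skeletal muscle markers -0.31 (20 of 22 below 0) and markers of ovary, oviduct and uterus 0.66 (20 of 21 above 0), again with 0 passing. Kidney markers had a median of 0.54 (5 of 5 above 0), also with 0 passing. Only Hsd17b10 did not overlap between the casein groups, at -0.11, -0.13 and -0.25 in the wild type, and 0.14, 0.05 and 0.06 in null pools (0.24 ± 0.09, adjusted p = 0.574), against 12% of all genes.

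Averaged over the diets, null pools differed from wild type pools past the test for Hsd17b10 alone of the 26 oxidation genes (0.30 ± 0.07, 6 pools a side, limma adjusted p = 0.0287, 95% interval 0.16 to 0.44). All 6 null pools lay above all 6 wild type pools, from 0.05 upwards against up to 0.02. Among all genes 7.52% passed and 3.07% did not overlap. Of its 2 probe sets, both were higher in all null pools on casein, 1 on the high fat diet and 0 across all 12 pools. A further 7 oxidation genes had an unadjusted p under 0.05, all lower in null pools. With Hsd17b10 that made 8 of 26, beside 4658 of all 18194 genes in either direction. Among the 7 were all 3 electron transfer flavoprotein genes. Etfa differed by -0.48 ± 0.16 (adjusted p = 0.0903) and Etfb by -0.36 ± 0.12 (adjusted p = 0.0919). Etfdh, which hands the electrons to ubiquinone, differed by -0.27 ± 0.11 (adjusted p = 0.163). On casein Etfa read -0.06, 0.45 and 0.12 in the wild type, and 0.04, -0.29 and -0.51 in null pools, and Etfb -0.12, 0.57 and 0.26 against -0.07, -0.19 and -0.11. The groups overlapped for both on casein. Acadm, the medium-chain dehydrogenase, read -0.08, 0.64 and 0.35 in wild type casein, 0.14, -0.06 and -0.37 in null casein, -0.05, 0.17 and 0.28 in wild type high fat diet and 0.05, -0.29 and -0.67 in null fat-fed pools. It differed by -0.42 ± 0.15 on average (adjusted p = 0.122), with overlap on either diet. Eci2 read -0.07, 0.15 and 0.03 in wild type casein and 0.02, -0.08 and -0.17 in null casein pools, and differed by -0.16 ± 0.06 on average (adjusted p = 0.0968). In this averaged comparison 21 of 21 markers of ovary, oviduct and uterus lay above 0, with 9 passing and a median of 1.07. Below 0 lay 9 of 10 adipocyte markers (median -0.20, 3 passing) and 9 of 10 brown fat markers (-0.91, 1 passing). Adrenal markers had a median of -0.68 (7 of 7 below 0, 1 passing). Liver markers had -0.62 (15 of 17 below 0) and skeletal muscle markers -0.42 (21 of 22 below 0), with 0 passing. Their part was not tested beyond the alternatives.

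The test of Hsd17b10 averaged over diets was lost in 13 of 23 alternatives, with differences of 0.23 to 0.37. It ended without pool 2 or 3 of wild type casein, null casein, wild type high fat diet or null high fat diet (adjusted p = 0.0501 to 0.0703 over these 8 omissions), and with the brown fat median as a covariate (0.28, adjusted p = 0.0848). Without wild type casein pool 1, one of the 3 pools highest in muscle markers, 8 oxidation genes passed instead of 1, and 2339 of all genes passed instead of 1368.

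**Figure D3:**
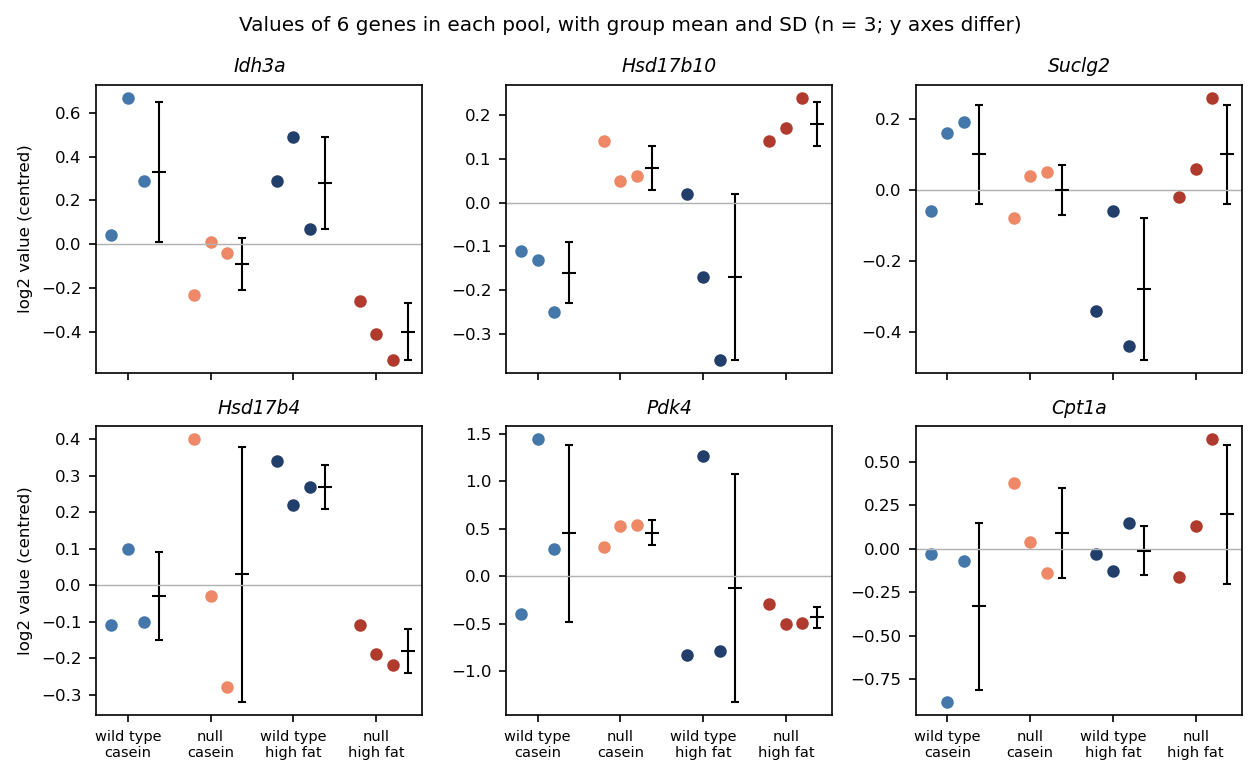
Centred log2 value of 6 genes (Idh3a, Hsd17b10, Suclg2, Hsd17b4, Pdk4 and Cpt1a) in each of the 12 pools, 1 point per pool, with the group mean and SD (n = 3) beside them. Hsd17b10 has all null pools above all wild type pools and Idh3a has all null pools below, whereas Pdk4 is highest in pool 2 of either wild type group (1.44 and 1.26) and Cpt1a lowest in wild type casein pool 2 (-0.88).

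The diet comparison within each genotype asked whether the high fat diet moved fat-burning genes in either. In wild type pools 0 of 26 oxidation genes passed, beside 0% of all genes, and 2 had an unadjusted p under 0.05 (1384 of all genes). These were again Acaa2 (-0.74 ± 0.29, limma adjusted p = 0.639) and Acadvl (-0.65 ± 0.29, limma adjusted p = 0.652). Their wild type fat-fed pools read -0.35, 0.41 and -0.17 for Acaa2 and -0.01, 0.50 and -0.28 for Acadvl, so that pool 2 of that group overlapped the casein pools. Hsd17b4 went the other way, from -0.11, 0.10 and -0.10 on casein to 0.34, 0.22 and 0.27 on the high fat diet, without overlap (0.31 ± 0.14, limma adjusted p = 0.661). It was the only oxidation gene without overlap there, against 11.9% of all genes. The oxidation median was -0.09 and turned to 0.21 without the 2 pools highest in brown fat markers, which are both casein pools. That leaves pool 1, high in muscle markers, as the only wild type casein pool. All 10 brown fat markers lay lower on the high fat diet in wild type pools, with a median of -1.38 and 0 passing. So did 17 of 17 liver markers (median -0.84), 7 of 7 adrenal markers (-0.79) and 19 of 21 markers of ovary, oviduct and uterus (-0.35), also with 0 passing. Higher lay 10 of 10 macrophage markers (median 0.28), 8 of 10 adipocyte markers (0.07) and 4 of 5 kidney markers (0.07). Skeletal muscle markers had a median of -0.37 (14 of 22 below 0), and 0 passed in these lists either.

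In null pools the diet also left 0 of 26 oxidation genes past the test (0% of all genes), and 0 had an unadjusted p under 0.05, where 727 of all genes did. The median was -0.11, with 22 of 26 below 0. In the same comparison 10 of 10 adipocyte markers lay below 0 (median -0.25), as did 8 of 10 brown fat markers (-0.57) and 17 of 22 skeletal muscle markers (-0.47). Liver markers had a median of -0.06 (11 of 17 below 0) and markers of ovary, oviduct and uterus 0.23 (17 of 21 above 0), with 0 passing in any of these lists. Among the oxidation genes the groups did not overlap for Hadh, Hadhb, Decr1, Slc25a20 and Pdk4, all lower on the high fat diet. Nor did they for Hsd17b10, which was higher, against 10.6% of all genes. Pdk4 stood at 0.31, 0.53 and 0.54 in null casein pools and at -0.29, -0.50 and -0.49 in null fat-fed pools, a difference of -0.89 ± 0.55 (limma adjusted p = 1). In wild type pools Pdk4 read -0.40, 1.44 and 0.29 on casein and -0.83, 1.26 and -0.78 on the high fat diet (-0.56 ± 0.55, adjusted p = 0.808). Pool 2 of either wild type group was above all other pools for Pdk4, and its wild type groups overlapped. Averaged over genotypes, 0 of 26 passed (0.0055% of all genes, 1 gene) and 3 had an unadjusted p under 0.05 (952 of all genes). The diets did not overlap for 0 of 26, against 0.258% of all genes.

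Whether the diet acted differently in null pools was tested by the interaction, the diet difference of the null pools less that of the wild type. It passed for 0 of 26 oxidation genes and 0% of all genes, with 1 and 1113 at an unadjusted p under 0.05. That gene was Hsd17b4, at -0.51 ± 0.20 (limma adjusted p = 0.789), with null casein pools at 0.40, -0.03 and -0.28. The oxidation median was -0.04, and all genes had 0.

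Cpt1a stood apart from most of the pathway in wild type casein pool 2. It read -0.03, -0.88 and -0.07 in wild type casein, 0.38, 0.04 and -0.14 in null casein, -0.03, -0.13 and 0.15 in wild type high fat diet and -0.16, 0.13 and 0.63 in null fat-fed pools. It was lowest in wild type casein pool 2, where 21 of the 26 oxidation genes were highest, and highest in null fat-fed pool 3, where 13 of the 26 were lowest. It differed between genotypes by 0.31 ± 0.18 on average (adjusted p = 0.301). Ehhadh, the peroxisomal bifunctional enzyme, read -0.38, 0.54 and 0.53 for wild type casein and -0.27, -0.33 and -0.19 for null casein. Its fat-fed pools read 0.35, 0.31 and 0.14 in the wild type, and 0.61, -0.14 and -0.98 in the null, so that its highest and lowest values lay in the same group. It differed by -0.46 ± 0.25 on average (adjusted p = 0.265), with overlap on either diet. Acaa1a, the peroxisomal thiolase, stayed between -0.30 and 0.24, and its 2 probe sets, of a kind that can bind several transcripts, did not vary together (r = -0.03 over the 12 pools). Acot2, a mitochondrial thioesterase that frees fatty acids from CoA, read -0.10, -0.07 and -0.49 in wild type high fat diet and -0.12, 0.04 and -0.08 in null fat-fed pools (0.16 ± 0.12, adjusted p = 0.44).

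In the citric acid cycle, Idh3a was the only 1 of 11 genes that passed the test between genotypes on the high fat diet, and it fell in null pools. It encodes the catalytic subunit of the NAD-dependent isocitrate dehydrogenase, one of the rate-setting enzymes of the cycle. Its values were 0.29, 0.49 and 0.07 in the wild type, and -0.26, -0.41 and -0.53 in null fat-fed pools. The groups did not overlap, and Idh3a fell by 0.68 ± 0.16 on the log2 scale (SE, limma adjusted p = 0.0368, 95% interval -1.03 to -0.34), 1.61-fold lower. In 3 of its 4 probe sets all null pools were lower. The other subunits of the enzyme, Idh3b and Idh3g, differed by -0.07 ± 0.16 and -0.16 ± 0.18 and did not pass (adjusted p = 0.843 and 0.64). The share of 1 of 11 stands beside 5.92% of all genes.

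On casein Idh3a read 0.04, 0.67 and 0.29 in the wild type, and -0.23, 0.01 and -0.04 in null pools, again without overlap (-0.42 ± 0.16, limma adjusted p = 0.574). Averaged over diets it fell by 0.55 ± 0.11 in null pools (limma adjusted p = 0.0237, 95% interval -0.80 to -0.30). All 6 null pools lay below all 6 wild type pools, and it was the only cycle gene to pass or to separate, against 7.52% and 3.07% of all genes. In 2 of its 4 probe sets the 12 pools separated likewise. The averaged and the high fat diet tests share the fat-fed pools. Tissue markers also differed in the averaged comparison, as given above with the oxidation genes, and their part was not tested beyond the alternatives. The interaction of Idh3a was -0.27 ± 0.22 (adjusted p = 0.839).

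The call of Idh3a on the high fat diet ended in 11 of 23 alternatives (adjusted p = 0.00135 to 1). It ended without null casein pool 2 (0.0572) or 3 (0.0506), without wild type fat-fed pool 1 (0.0879), 2 (0.101) or 3 (0.0747) and without null fat-fed pool 2 (0.115) or 3 (0.143), with differences of -0.79 to -0.58 throughout. It also ended under either other rule for probe sets (-0.76 in both, adjusted p = 0.0596 and 0.0641) and after a further quantile normalization (-0.76, adjusted p = 0.0729). Without null fat-fed pool 2 or pool 3, 0 of all genes passed. With the brown fat median as a covariate Idh3a stood at -0.65 (adjusted p = 0.0317) and without the 2 pools highest in brown fat markers at -0.68 (adjusted p = 0.0151). With the muscle, liver and reproductive tract medians as covariates it stood at -0.13 (adjusted p = 1). In that fit the reproductive tract covariate and genotype can hardly be told apart. The averaged call ended without null casein pool 2 or 3 and without null fat-fed pool 2 or 3 (adjusted p = 0.0542 to 0.0607), with the brown fat covariate (-0.42, adjusted p = 0.0645) and without the 2 pools highest in brown fat markers (-0.40, adjusted p = 0.158).

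Succinyl-CoA ligase, which makes GTP or ATP in the cycle, had subunits that stood apart. Suclg2, the subunit of the GTP-forming enzyme, stood at -0.34, -0.06 and -0.44 in wild type fat-fed pools and at -0.02, 0.06 and 0.26 in null fat-fed pools. The null pools were all higher (0.38 ± 0.11, limma adjusted p = 0.0733), the only cycle gene with that order. On casein it read -0.06, 0.16 and 0.19 in the wild type, and -0.08, 0.04 and 0.05 in null pools (-0.09 ± 0.11). Its diet difference in wild type pools was -0.37 ± 0.11 (adjusted p = 0.549) and its interaction 0.47 ± 0.16 (adjusted p = 0.789), the 1 cycle gene at an unadjusted p under 0.05 for the interaction. Sucla2, the subunit of the ATP-forming enzyme, differed by -0.06 ± 0.10 between genotypes on the high fat diet (adjusted p = 0.745). Its probe sets disagreed there: 1 was lower in all null pools (-0.46), 1 was higher in all (0.17) and the other overlapped (0.11). Averaged over diets Sucla2 differed by -0.15 ± 0.07 (limma adjusted p = 0.209). Under either other rule for probe sets that difference was -0.48 ± 0.12 and passed (limma adjusted p = 0.0393 and 0.0441). The shared subunit Suclg1 differed by -0.21 ± 0.21 on the high fat diet (adjusted p = 0.587). Over the 11 cycle genes 10 lay below 0 in null fat-fed pools, with a median of -0.16. With the muscle, liver and reproductive tract medians as covariates that median turned to 0.33, in a fit that can hardly tell the reproductive tract covariate and genotype apart.

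On casein all 11 cycle genes lay lower in null pools, with a median of -0.30 where all genes had -0.01, and 0 passed (0% of all genes). In 5 of the 11, Idh3a, Ogdh, Dlst, Suclg1 and Sucla2, all null pools were below all wild type pools, beside 12% of all genes. The same 5 had an unadjusted p under 0.05, as did 1478 of all genes. By probe set this separation held in the 1 of Suclg1, 2 of 4 of Idh3a, 1 of 2 of Ogdh, 1 of 3 of Sucla2 and 1 of 4 of Dlst, and that last probe set was higher in all null pools on the high fat diet. The probe sets of Dlst and Sucla2 hardly varied together (lowest r = 0.09 and 0.01 over the 12 pools). Dlst, the core subunit of oxoglutarate dehydrogenase, read 0.04, 0.40 and 0.19 in the wild type, and -0.17, -0.01 and -0.08 in null pools (-0.30 ± 0.09, limma adjusted p = 0.542). Ogdh, the first subunit of that complex, read 0.01, 0.81 and 0.38 against -0.13, 0.01 and -0.02 (-0.45 ± 0.19, limma adjusted p = 0.594). Suclg1 read 0.05, 0.92 and 0.60 against -0.21, 0.02 and 0.04 (-0.57 ± 0.21, limma adjusted p = 0.574). In all 3 genes wild type pool 1 lay just above the highest null pool, for Ogdh by less than 0.01, and pools 2 and 3 further above. The cycle median was -0.11 with the brown fat median as a covariate and -0.02 without the 2 pools highest in brown fat markers. The latter fit leaves pool 1, high in muscle markers, as the only wild type casein pool.

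Fh1, the fumarase, read -0.02, 0.61 and 0.35 in wild type casein, 0.07, -0.03 and -0.18 in null casein, 0.22, 0.29 and -0.02 in wild type high fat diet and 0.02, -0.16 and -0.46 in null fat-fed pools. It differed by -0.36 ± 0.12 on average (adjusted p = 0.0896), and the groups overlapped on either diet. Dlst read -0.01, 0.03 and -0.06 in the wild type, and -0.02, -0.04 and -0.15 in null fat-fed pools, a difference of -0.06 ± 0.09. Cs, citrate synthase, the entry step of the cycle, differed by -0.19 ± 0.11 on average (adjusted p = 0.313). Averaged over diets 5 cycle genes had an unadjusted p under 0.05, all lower in null pools. Of all genes 4658 did, in either direction. The cycle median was -0.19 where that of all genes was -0.02. Mdh2, the malate dehydrogenase of the last step, had the narrowest span of the cycle at 0.44.

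For diet, 0 of 11 cycle genes passed in wild type or in null pools (0% of all genes in either). In wild type pools all 11 lay lower on the high fat diet, with a median of -0.22. Of these, 4 had an unadjusted p under 0.05 (Idh3b, Dlst, Suclg1 and Suclg2), as did 1384 of all genes. Only Dlst did not overlap, against 11.9% of all genes. Leaving out wild type casein pools 2 and 3 took that median to 0.04. In null pools the median was -0.13, 0 had an unadjusted p under 0.05, and Idh3a, Idh3g and Mdh2 were lower in all fat-fed pools, against 10.6% of all genes. Averaged over genotypes 0 passed, 3 had an unadjusted p under 0.05 (952 of all genes), 0 did not overlap (0.258% of all genes) and the median was -0.15. The interaction passed for 0 of 11 and had a median of 0.17.

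**Figure D4:**
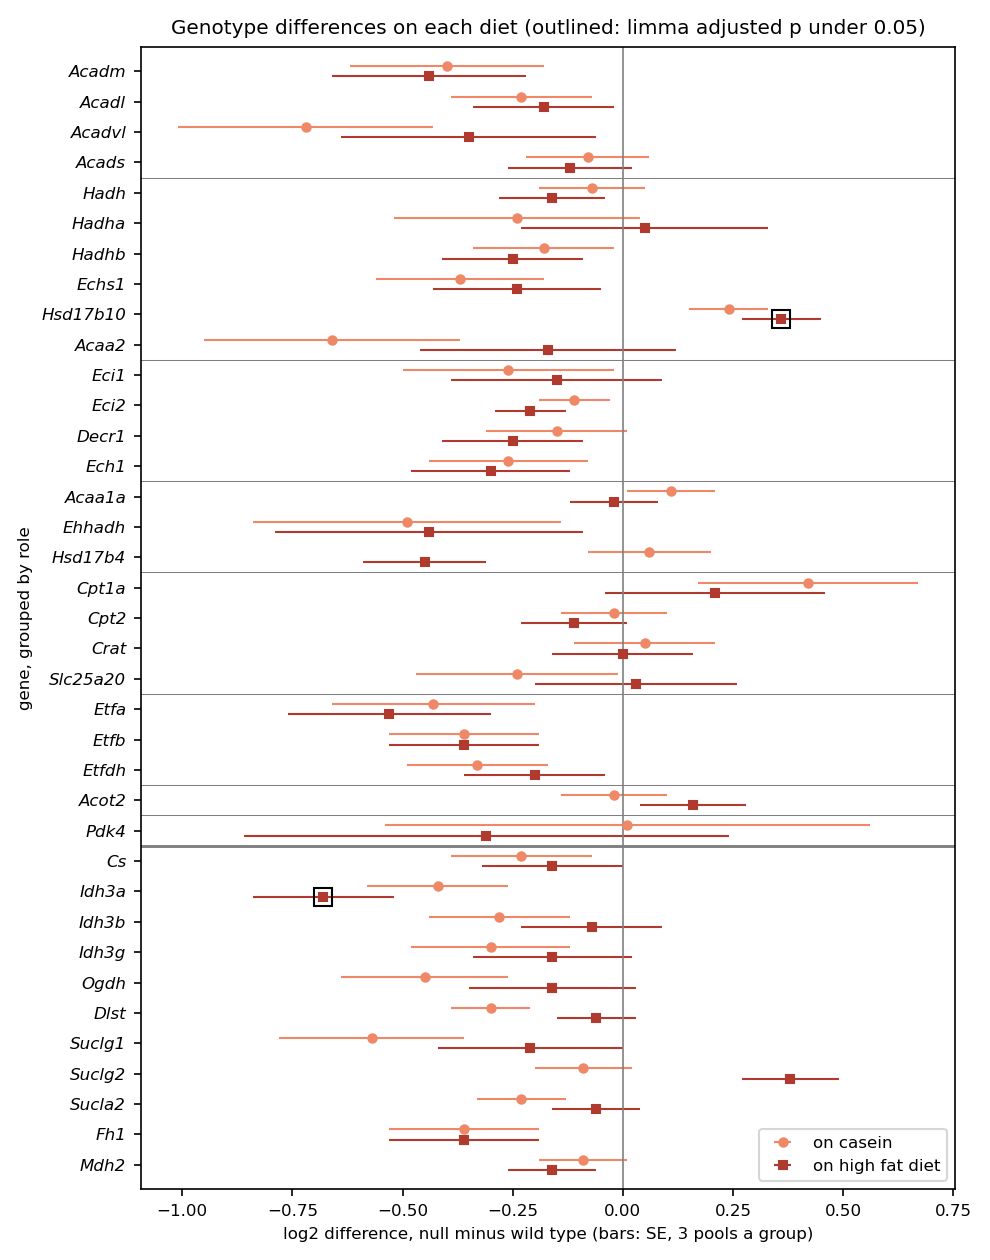
Null minus wild type difference in log2 value for each of the 37 genes for either diet, with the standard error of the fit (3 pools a group). Most points lie below 0 on either diet, and Idh3a (-0.68) and Hsd17b10 (0.36) on the high fat diet are the genes outlined as past the test.

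Other genes of the pathways were counted from lists. A further 22 oxidation genes were read from probe sets of their own. On the high fat diet 1 of the 22 rose in null pools, Acot1, a cytosolic thioesterase (1.77 ± 0.32, limma adjusted p = 0.0225), and 1 fell, Acad9, a dehydrogenase that also helps assemble complex I (-0.33 ± 0.08, limma adjusted p = 0.0431), with a list median of -0.08. These 2 of 22 stand beside 5.92% of all genes. Averaged over diets 3 rose, Acot1 (1.03 ± 0.22, adjusted p = 0.0283), Cpt1c, a brain form of the carnitine transferase (0.58 ± 0.14, adjusted p = 0.0352), and Acadsb, for branched short chains (0.31 ± 0.08, adjusted p = 0.0376). A pair fell, Amacr, a racemase for branched fatty acids (-0.33 ± 0.09, adjusted p = 0.0479), and Acad9 (-0.21 ± 0.06, adjusted p = 0.0494), so that 5 of 22 passed beside 7.52% of all genes. None of the 22 passed in the other comparisons, with 0 to 4 at an unadjusted p under 0.05. Of 20 further cycle and pyruvate dehydrogenase genes 0 passed in any comparison, with medians of -0.19 (genotype on casein) to 0.06 (interaction) and 0 to 5 at an unadjusted p under 0.05. None of the 9 regulators passed in any comparison, with 0 to 3 at an unadjusted p under 0.05. Ppargc1b and Esrra, coactivator and receptor of mitochondrial genes, differed between genotypes on casein by -0.69 ± 0.27 (adjusted p = 0.581) and -0.38 ± 0.12 (adjusted p = 0.542). Ppara, the fatty acid receptor that drives oxidation genes in liver, differed by -1.01 ± 0.40 between diets in wild type pools (adjusted p = 0.639).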

How the data were processed

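Total RNA from 12 pools of abdominal fat pads, 3 in each of 4 groups, was measured on 12 Affymetrix arrays from 8 µg of total RNA, per the labels' protocols. One protocol text speaks of rats, whereas the organism, strain and platform are those of the mouse. The submitters' processing notes name GCOS and RMA with no version. The deposited log2 values had been centred by the authors: the median of each of 45101 probe sets over the 12 arrays is 0 (0 depart by more than 1e-06). The base of the logarithm is not given in the sources used here and was taken as 2, as RMA gives it. No level and no signal over background can be read from such values, and the number of arrays limits the precision.

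The platform annotation names 1 gene for 34958 probe sets, several for 932 and none for 9211, and only the first kind was used. Probe sets of a gene were averaged, giving 18194 genes, named by RefSeq symbols. limma 3.58.1 in R 4.3.3 was fitted to the 4 group means over all 12 arrays (8 residual and 2.5 prior degrees of freedom), with Benjamini-Hochberg adjustment over the 18194 genes and a threshold of 0.05. The 7 comparisons are diet in each genotype, genotype on each diet, the interaction, and diet and genotype averaged over the other factor. Errors after ± are standard errors of the fit. Groups are said not to overlap when every pool of one lies above every pool of the other. A positive genotype difference means higher in null pools, and a positive diet difference means higher on the high fat diet. The 37 genes and the gene lists were chosen with earlier results of these data known. Values in every pool are given for genes that passed in any comparison, for the 6 oxidation and 4 cycle genes with the smallest unadjusted p over the 7 comparisons, and for genes that show how pools differ, which were chosen after their values were seen. Alternatives changed the rule for probe sets, the normalization, the filter, array weights, tissue covariates and the pools used. Ppargc1a stands in the lists of brown fat markers and of regulators. The fit was run on simulated data with noise drawn independently for each gene and pool, and with changes larger than most reported here. That run does not cover tissue differences shared by many genes. Probe sets of several genes were left out, and their one exception in the text is described as such.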

Additional observations from a re-analysis of the deposited data

Results flagged for a closer look

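A probe set that matches both Acot1 and Acot2 was not used for a gene value, and it differed between genotypes on the high fat diet by 1.23. It read -0.91, -0.84 and -0.84 in the wild type, and 0.06, 0.33 and 0.70 in null fat-fed pools, and it stood between -0.06 and 0.22 in the 6 casein pools. The 2 probe sets of Acot2 alone overlapped between genotypes of the fat-fed pools, with group means of -0.18 against -0.06 and -0.25 against -0.04. Acot1, read without that probe set, differed by 1.77 ± 0.32 in the same comparison (limma adjusted p = 0.0225). The shared probe set was given no test of its own. No group had 4 or more pools, so a pool far from the others of its group was not looked for.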

How the results depend on the processing

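A total of 23 alternatives were run, 2 of them chosen after seeing the data (the brown fat median as a covariate, and leaving out the 2 pools highest in brown fat markers, which leaves 1 wild type casein pool that is assumed to vary like the other groups). That remaining pool is pool 1, in which 22 of 22 skeletal muscle markers lay above 0. A pathway median is said to have moved when it changed by more than its SD within groups, 0.18 for oxidation and 0.15 for the cycle. The causes of the changes below were not tested.

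With the muscle, liver and reproductive tract medians as covariates, the oxidation median was -0.29 for diet in wild type pools, 0.08 for genotype on casein, 0.41 for genotype on the high fat diet, 0.37 for the interaction and 0.23 for the averaged genotype. The cycle median was then 0.05 for diet in null pools, -0.13, 0.33 and 0.11 for genotype on casein, on the high fat diet and averaged, and 0.44 for the interaction. In that fit 0 genes of either pathway passed between genotypes on the high fat diet or averaged (2 of all genes did in either). The averaged differences of Etfa (0.13), Etfb (0.16), Eci2 (0.02), Acadm (0.27) and Fh1 (0.13) reversed. The fit leaves 5 residual degrees of freedom. Its reproductive tract medians do not overlap between genotypes on the high fat diet, so this covariate and genotype can hardly be told apart.

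Without the 3 pools highest in muscle markers (wild type fat-fed pool 2, null fat-fed pool 1 and wild type casein pool 1), the medians were -0.28 (oxidation) and -0.38 (cycle) for diet in wild type pools, -0.40 (oxidation) for genotype on casein and -0.32 (cycle) for the averaged diet. Then 1 oxidation gene passed between genotypes on casein (Acaa2), 0 oxidation and 2 cycle genes on the high fat diet, and 6 and 3 averaged, beside 86, 1006 and 2085 of all genes. With muscle alone as a covariate 0 oxidation genes passed on the high fat diet.

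With the brown fat median as a covariate the cycle medians were -0.04 for diet in wild type pools, -0.11 for genotype on casein and 0 for the interaction, with 0 oxidation and 2 cycle genes past the test on the high fat diet and 0 of either averaged, beside 802 and 227 of all genes. Without the 2 pools highest in brown fat markers the oxidation medians were 0.21, 0.13 and -0.35 and the cycle medians 0.04, -0.02 and -0.11 for diet in wild type pools, genotype on casein and the interaction. In that setting 0 oxidation genes passed between genotypes on the high fat diet and 0 of either pathway averaged, beside 1560 and 64 of all genes.

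With array weights, whose estimation gave a warning that it had not settled, 1 cycle gene passed for diet in null pools, 6 oxidation and 3 cycle genes for genotype on the high fat diet, and 7 and 4 averaged, beside 5120 and 4009 of all genes for the last pair of comparisons. With the probe set of widest span 0 genes of either pathway passed between genotypes on the high fat diet and 2 cycle genes averaged. With the probe set of highest mean it was 0 of either on the high fat diet and 0 oxidation and 2 cycle genes averaged. Under both of these rules the 2 cycle genes were Idh3a and Sucla2. After a further quantile normalization 0 cycle genes passed on the high fat diet, and with genes of small span left out 0 oxidation genes did.

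Leaving out 1 pool at a time gave these ranges of medians for oxidation and the cycle: -0.27 to 0.05 and -0.32 to -0.10 for diet in wild type pools, -0.18 to -0.06 and -0.16 to -0.05 for diet in null pools, -0.40 to -0.01 and -0.42 to -0.16 for genotype on casein, -0.25 to -0.11 and -0.26 to -0.04 for genotype on the high fat diet, -0.17 to 0.14 and 0.04 to 0.33 for the interaction, -0.17 to -0.01 and -0.24 to -0.08 for the averaged diet, and -0.29 to -0.11 and -0.27 to -0.13 for the averaged genotype. The genes past the test numbered 0 to 1 and 0 to 1 for genotype on the high fat diet and 0 to 8 and 0 to 5 averaged, and 0 in the other comparisons, with the upper values averaged reached without wild type casein pool 1.

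Pool numbers recur across groups, and a replicate block for the pool number left 0 oxidation genes past the test on the high fat diet (Hsd17b10 0.36, adjusted p = 0.0632), with 542 of all genes. It changed no other count of either pathway. In their deviations from group means, same-numbered pools correlated at -0.61 to 0.59 (median -0.09) over 18 pairs, with 3 over 0.1. Differently numbered ones correlated at -0.60 to 0.61 (median 0.02) over 36 pairs, with 16 over 0.1. Between the 2 diets, null pools 1, 2 and 3 correlated with their own number at 0.55, -0.01 and 0.59. Whether some numbers pair pools is not settled by these values.

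Limits are that 3 pools a group, with tissue markers that differ between pools of a group, leave wide intervals. The medians of reproductive tract and of adipocyte markers also do not overlap between genotypes on the high fat diet. Genotype and these tissue differences cannot be told apart there, nor in the averaged genotype comparison, which shares those pools. Centred values allow neither a background correction, nor a filter on dim probe sets, nor any statement on levels. No slide or scan date was given, so no batch was fitted.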
